A study of Mus musculus with 12 samples.

Results

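Purkinje cells are the large GABAergic output neurons of the cerebellar cortex, and 10 of their marker genes were followed here through RNA-seq libraries of the neighbouring external granule layer. The genes, Pcp2, Pcp4, Car8, Calb1, Slc1a6, Gng13, Itpr1, Foxp2, Rora and Ppp1r17, were chosen by name from 53379 gene rows as markers of this cell type. The question was how far they rise and fall together from library to library, as a measure of the Purkinje cell RNA that came along with the layer.

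In the first postnatal days Purkinje cell bodies lie beneath the external granule layer, outside it, while granule neuron precursors divide within it. They release Sonic hedgehog, the main mitogen of those precursors, and they handle large calcium signals from glutamate receptors with a set of calcium-binding and calcium-release proteins.

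The external granule layer of the central lobules was cut by laser capture from C57BL/6 mice at postnatal day 6. Of the libraries, 6 were titled wild type and 6 knockout. The knockout mice carried a conditional deletion of SnoN, the product of Skil and a regulator of transcription, and the wild-type mice were control littermates. The Cre driver, the deleted exons and the sex of the mice are not given in the labels used. Libraries are written by group and number, as in WT1 or KO2. Nothing in the labels ties 1 library to 1 animal. The spread between libraries, which the p-values rest on, may therefore be technical in part.

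Gene counts per library summed to between 7520076 and 15083086, and between 18216 and 20037 genes had at least 1 count. WT2 and KO4 carry a note of the submitters that a robust principal component analysis set them apart. Both were left out of the comparison between genotypes but kept in the correlations. KO2 is titled knockout but carries a wild-type genotype tag, and was kept by its title. Skil was at 47.5, 57.8, 57.3, 38.5 and 48.5 CPM in WT1, WT3, WT5, WT6 and WT7, and at 36.1, 36.7, 20.9, 30.1 and 29.9 CPM in KO2, KO3, KO5, KO6 and KO8. CPM are counts per 1000000 counts in genes that passed a filter on low counts, scaled by TMM factors. All 5 wild-type values of Skil lay above all 5 knockout values (two-sided exact permutation test on log2(CPM + 1), p = 0.00794, the smallest that 5 against 5 allows). The layer's own genes were far above the markers: Zic1, a transcription factor of granule precursors, averaged 898 ± 222 CPM and Neurod1, which drives granule neuron differentiation, 3155 ± 1022 CPM (SD, n = 12).

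The calcium-handling markers gave most of the signal. Car8 encodes a carbonic anhydrase-related protein that binds the IP3 receptor and lowers its affinity for IP3. It was at 135, 153, 92.0, 120.2 and 104 CPM in WT1, WT3, WT5, WT6 and WT7 and at 236 CPM in WT2. In the knockout it was at 181, 209.8, 158, 126 and 145 CPM in KO2, KO3, KO5, KO6 and KO8 and at 126 CPM in KO4. WT2 was thus the highest of all libraries, KO3 and KO2 followed, and the 2 groups overlapped. Car8 lies on chromosome 4 (8143362 to 8239041, minus strand; all gene positions are from GENCODE M21 on GRCm38).

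Calb1 encodes calbindin, the cytosolic calcium buffer used to stain Purkinje cells. It was at 95.9, 114, 80.3, 79.7 and 81.0 CPM in WT1, WT3, WT5, WT6 and WT7 and at 274 CPM in WT2. In KO2, KO3, KO5, KO6 and KO8 it was at 155, 209, 109, 106 and 109 CPM, and in KO4 at 70.7 CPM. The marked libraries held both ends of its range, with WT2 highest and KO4 lowest. Calb1 lies on chromosome 4 (15881264 to 15908064, plus strand). Car8 and Calb1 together made up most of the members' RNA, with 37.1% and 30.8% of their summed CPM.

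Itpr1 encodes the IP3 receptor that releases calcium from internal stores. It was at 21.8, 23.5, 18.8, 19.9 and 13.3 CPM in WT1, WT3, WT5, WT6 and WT7 and at 41.2 CPM in WT2. In KO2, KO3, KO5, KO6 and KO8 it was at 21.98, 32.0, 24.9, 21.4 and 27.4 CPM, and in KO4 at 24.8 CPM. Its order was again led by WT2 and KO3, and WT7 was lowest. Itpr1 lies on chromosome 6 (108213096 to 108551109, plus strand).

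Pcp4 encodes a small calmodulin-binding peptide. It ranged from 18.8 CPM in WT7 to 36.9 CPM in WT2 in the wild type, with a median of 28.2 CPM, and from 22.2 CPM in KO6 to 40.1 CPM in KO5 in the knockout, with a median of 26.0 CPM. KO5, not WT2, was thus its highest library. Pcp4 lies on chromosome 16 (96467606 to 96525793, plus strand) and shares 23.7% of its exon bases with Igsf5 on the same strand, so some of its reads may have been counted as ambiguous.

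The markers of G protein signalling were less abundant. Pcp2, a modulator of Gi and Go proteins, ranged from 10.7 CPM in WT7 to 21.9 CPM in WT3 in the wild type and from 14.0 CPM in KO6 to 25.2 CPM in KO4 in the knockout, with medians of 17.5 and 19.4 CPM. The marked library KO4, low in Calb1, was thus the highest in Pcp2. Gng13, a G protein gamma subunit, ranged from 0.619 CPM in WT6 to 2.48 CPM in WT2 and from 0.648 CPM in KO8 to 2.04 CPM in KO2, on 5 to 21 reads per library. Pcp2 lies on chromosome 8 (3623371 to 3625545, minus strand) and Gng13 on chromosome 17 (25717171 to 25719406, plus strand). Both overlap a gene on the opposite strand: 51.5% of the exon bases of Pcp2 are shared with Pet100 and 51.6% of those of Gng13 with Chtf18, a replication factor gene, and the library kit does not mark strand.

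Slc1a6, the Purkinje glutamate transporter EAAT4, ranged from 1.90 CPM in WT7 to 5.79 CPM in WT2 in the wild type and from 3.55 CPM in KO3 to 7.12 CPM in KO8 in the knockout, with medians of 4.74 and 4.50 CPM. KO3, the second-highest library for Car8 and Calb1, was the lowest knockout library here. Slc1a6 lies on chromosome 10 (78780496 to 78814765, plus strand). Ppp1r17, the G-substrate that inhibits protein phosphatases in Purkinje cells, was barely covered, with 1 to 20 reads per library. It ranged from 0.247 to 1.37 CPM in the wild type and from 0.0973 to 1.44 CPM in the knockout, and did not pass the filter on low counts. Ppp1r17 lies on chromosome 6 (56017497 to 56032689, plus strand).

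Foxp2 and Rora encode transcription factors of Purkinje cells. Foxp2 is a forkhead protein expressed by Purkinje cells from early in their development. It was at 11.3, 14.9, 13.4, 15.7 and 19.6 CPM in WT1, WT3, WT5, WT6 and WT7 and at 73.6 CPM in WT2. In KO2, KO3, KO5, KO6 and KO8 it was at 32.8, 50.3, 19.9, 13.8 and 23.5 CPM, and in KO4 at 16.6 CPM. Of the 5 unmarked knockout libraries, 4 lay above every unmarked wild-type library, but WT2 lay above them all. Foxp2 lies on chromosome 6 (14901349 to 15441977, plus strand).

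Rora encodes the nuclear receptor mutated in the staggerer mouse, in which Purkinje cells fail to mature. It was at 20.6, 21.4, 15.3, 10.9 and 13.3 CPM in WT1, WT3, WT5, WT6 and WT7 and at 57.2 CPM in WT2. In KO2, KO3, KO5, KO6 and KO8 it was at 38.1, 41.5, 16.8, 23.0 and 32.8 CPM, and in KO4 at 15.6 CPM. The order repeated that of Foxp2 at the top, with WT2, KO3, KO2 and KO8. Rora lies on chromosome 9 (68653786 to 69388246, plus strand).

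**Figure D1:**
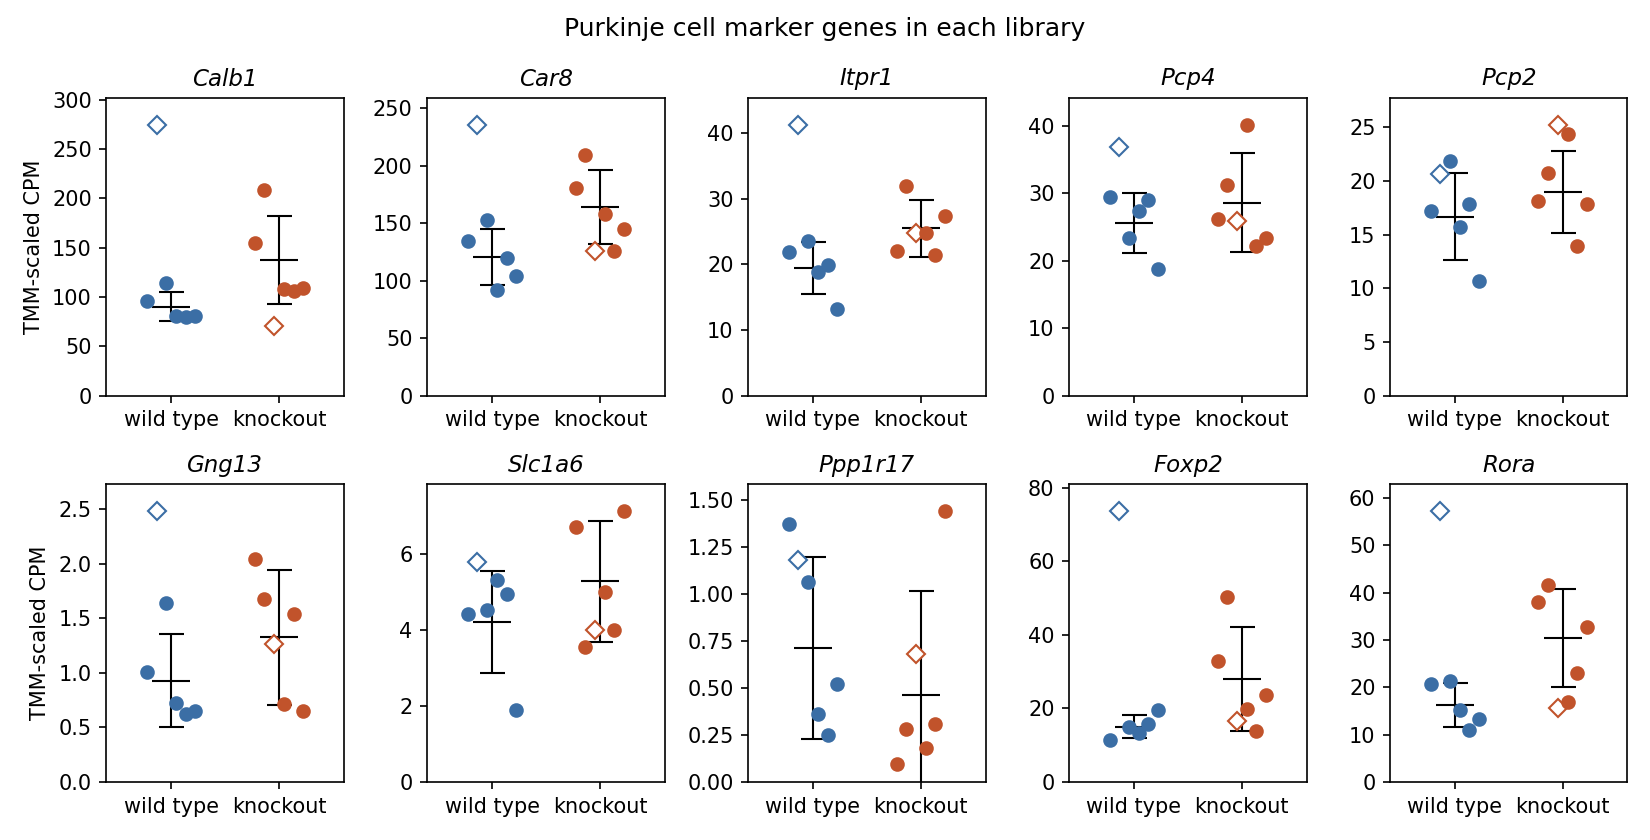
TMM-scaled CPM (vertical axes, linear and from 0) of each marker gene in the 6 wild-type and 6 knockout libraries. Circles are libraries used in the comparison, open diamonds are the marked libraries WT2 and KO4, and the bars give the mean and SD of the 5 circles; WT2 is the highest point for Car8, Calb1, Gng13, Itpr1, Foxp2 and Rora, and the groups overlap for all 10 genes.

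The protein that Rora encodes binds sites that contain the letters AGGTCA. The 250 bases before each start site in RefSeq (GRCm38.p6) were searched for these letters alone, without their flanks, on both strands. Windows were found for 5 of the 10 markers, Pcp2, Pcp4, Slc1a6, Gng13 and Rora. Of these, Pcp2 and Pcp4 hold the letters. Counted by window, since a gene can have several start sites, 4 of the 9 windows of these 5 genes hold them, as do 14.0% of all 32851 windows. For each of these 2 genes 1 window with the letters is shown, chosen without regard to expression. The capitals mark the match, which reads TGACCT in Pcp4 because it lies on the opposite strand. For Pcp2 only the last 30 bases before the start are shown (chr8:3625548-3625577, minus strand), and for Pcp4 all 250 (chr16:96467356-96467605, plus strand).
Pcp2: cttttaaaaggccttctcAGGTCAgagacc
Pcp4: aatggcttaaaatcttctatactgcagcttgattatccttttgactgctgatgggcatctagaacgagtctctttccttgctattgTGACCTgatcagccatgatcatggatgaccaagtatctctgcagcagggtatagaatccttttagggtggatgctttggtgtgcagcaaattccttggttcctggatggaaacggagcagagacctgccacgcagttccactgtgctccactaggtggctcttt
A match is a run of letters in the window and does not show that the receptor binds there.

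Per length, the markers fell into an upper and a lower range. On the scale of RPKM, which divides CPM by exon length in kilobases, Car8 (38.6 ± 10.98), Pcp4 (27.1 ± 5.93) and Calb1 (25.5 ± 12.6, SD, n = 12 for each) were highest and overlapped in their spread. Pcp2 followed at 10.2 ± 2.29 RPKM. Slc1a6 at 2.22, Rora at 1.95, Gng13 at 1.62, Foxp2 at 1.56 and Itpr1 at 1.32 RPKM also overlapped in their spread, and Ppp1r17 was lowest at 0.367 ± 0.279 RPKM. This spread is between libraries and does not measure the difference between genes of the same library, which was not tested.

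Summed over the 10 genes, the markers made up between 0.0273% of all gene counts in WT7 and 0.0653% in WT2. Their sum in CPM was 264 in WT7 and 749 in WT2, and 310.7 to 600.1 in the 6 knockout libraries. The mean of log2(CPM + 1) over the 10 genes, called the marker mean below, ran from 3.58 in WT7 to 4.88 in WT2, with KO3 at 4.50, KO2 at 4.34 and KO8 at 4.24 next to the top. The remaining 7 libraries lay between 3.78 and 4.12. In bulk libraries of this kind, fewer Purkinje cells and less RNA per cell cannot be told apart. Nor can they be told from RNA of other cells or from library-wide differences, such as the GC tilt described below.

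Car8, Calb1, Gng13, Itpr1, Foxp2 and Rora varied together across the libraries, and the other 4 markers less so. Over the 45 pairs of markers, Pearson's r on log2(CPM + 1) had a median of 0.46 and was positive in 43. It reached 0.5 in 21 pairs, against 15.3% of all 88677903 pairs of genes that passed the filter (median r 0.00). Genes share libraries and scaling, so these pairs are not independent.

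The tightest pairs joined the abundant calcium genes and the transcription factors. Car8 and Calb1 had r = 0.92 and Spearman's rho = 0.87 (n = 12, permutation p = 2e-05 for r and 4.7e-04 for rho, 4.5e-04 and 0.0072 after Benjamini-Hochberg adjustment over the 45 pairs). Without the 2 libraries farthest from the median of Car8, WT2 and WT5, r stayed at 0.92, and without those farthest in Calb1, WT2 and KO3, it was 0.82. Calb1 and Rora had r = 0.92 and rho = 0.90 (permutation p = 2e-05 and 2.6e-04, adjusted 4.5e-04 and 0.0072), and r was 0.84 without WT2 and KO3. Calb1 and Foxp2 had r = 0.89 but rho = 0.66 (permutation p = 5e-04 and 0.0211, adjusted 0.0045 and 0.0732). Without WT2 and KO3 their r was 0.58, so the higher r depended on these 2 libraries, which were picked as the farthest ones. Car8 and Itpr1, whose products bind each other, had r = 0.84 and rho = 0.87 (permutation p = 7.1e-04 and 4.8e-04, adjusted 0.00532 and 0.0072), and r was 0.77 without WT2 and WT5.

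Of the 45 pairs, 13 had an adjusted p under 0.05 by Pearson's r, all among those 6 genes, and 6 of these pairs also by Spearman's rho. The share of all gene pairs that would pass the same test was not computed, so these counts have no background beside them. Each of those 6 genes also had an r between -0.97 and -0.72 with the GC tilt described below. When the 2 libraries farthest from the median of either gene were left out, 11 of the 13 kept an r of at least 0.5. Calb1 with Itpr1 dropped to 0.36 without the 2 libraries farthest in Calb1, and Itpr1 with Foxp2 to 0.12 without those farthest in Foxp2. Within the 6 wild-type libraries 13 of the 13 pairs had an r of at least 0.5, where 24.6% of all gene pairs did. Within the 6 knockout libraries 8 of the 13 did, where 21.9% of all gene pairs did. The 13 pairs were picked by their r over these same libraries, WT2 included, so the values within groups are no separate test. These 6 genes are described as a set after their values were seen.

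Pcp2 and Pcp4 formed a looser pair. Their r was 0.66 and rho 0.43 (permutation p = 0.0204 and 0.169, adjusted 0.0613 and 0.400), and r was 0.63 without KO4 and WT7. Pcp2 had r = 0.69 with Itpr1 but 0.24 with both Foxp2 and Rora, and Pcp4 had 0.64 with Itpr1 and 0.29 with Rora. Slc1a6 reached 0.51 with Itpr1 and lay between 0.14 and 0.46 with the others. Ppp1r17 lay between -0.11 and 0.31 with every other marker, on 1 to 20 reads per library, where sampling noise is large. Gng13, on 5 to 21 reads, lay between 0.05 and 0.76. Whether low depth hid a relation of Ppp1r17 was not tested.

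**Figure D2:**
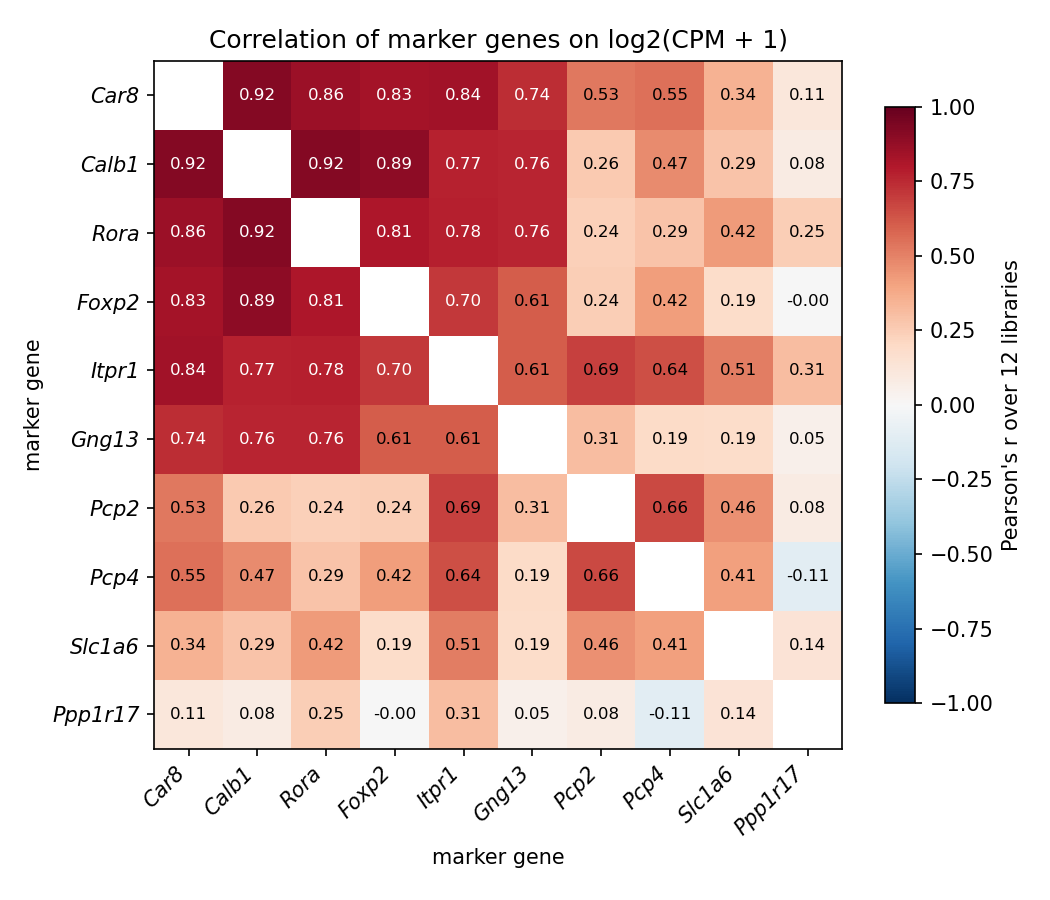
Pearson's r of log2(CPM + 1) over 12 libraries for each pair of the 10 marker genes (both axes), from -1 in blue to 1 in red. Car8, Calb1, Rora, Foxp2, Itpr1 and Gng13 form a block of r between 0.61 and 0.92, while the row of Ppp1r17 stays between -0.11 and 0.31.

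Against the mean of the other 9 markers, Car8 had r = 0.93, Itpr1 0.91, Calb1 0.90, Rora 0.88, Foxp2 0.77 and Gng13 0.69. Pcp4 had 0.50, Pcp2 0.45, Slc1a6 0.40 and Ppp1r17 0.13. Without the 2 libraries farthest from the median of that mean, Car8 stayed at 0.91 and Itpr1 at 0.76, while Pcp4 dropped from 0.50 to 0.17 and Gng13 from 0.69 to 0.42, and Slc1a6 went from 0.40 to 0.69.

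The strength of the shared movement depended on the libraries. Without WT2 and KO4 the median r was 0.38, and among the 6 wild-type libraries it was 0.70, where 24.6% of all gene pairs reached 0.5. Among the 6 knockout libraries it was 0.23, where 21.9% of all gene pairs did; the difference between the groups was not tested. Without WT2 and WT7, the 2 libraries farthest from the median of the marker mean, the median r was 0.18. The median r thus depended on these 2 libraries, but they were picked as extremes of the markers themselves, which tends to lower r. Without them 14 of the 45 pairs still reached 0.5, against 14.9% of all gene pairs.

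The libraries also differed in how well they represented genes of high and low GC content, and the markers moved with that. The GC tilt of a library is taken here as the mean deviation, in log2 units from each gene's mean over the 12 libraries, of genes with a transcript GC content of at least 52.6% minus that of genes with at most 46.1%. It was -0.64 in WT2, -0.31 in KO3, -0.29 in KO2 and -0.25 in KO8, the 4 libraries with the highest marker mean, and between 0.01 and 0.38 in the others. The marker mean and the tilt had r = -0.88 and rho = -0.73 over 12 libraries, and r = -0.83 without WT2 and WT7. Within the groups r was -0.93 in the wild type and -0.79 in the knockout.

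The members differed in this. Rora (40.9% GC) had r = -0.97 with the tilt, Calb1 (36.8%) -0.90, Foxp2 (42.6%) -0.86 and Car8 (42.3%) -0.78. Gng13 has the highest GC content of the 10 at 58.7%, yet its r was -0.72, and Itpr1 at 49.5% also had -0.72. Pcp2 (51.1%) had -0.12, Pcp4 (47.1%) -0.20 and Slc1a6 (56.4%) -0.39.

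After a trend on GC content was fitted in each library and removed, the median r of the 36 pairs among the 9 markers that passed the filter was 0.62, against 0.58 before. Of these pairs, 25 reached 0.5, against 11.96% of all gene pairs treated the same way. The mean of the 9 markers with the trend removed had r = 0.99 with the mean before removal, and still r = -0.83 with the tilt. The marker mean had r = -0.60 with the share of uniquely placed reads that were ambiguous between genes, 0.42 with the share of alignments to several places, -0.14 with the total count, 0.06 with the number of genes detected and -0.13 with the share of reads in no gene. Its r with Skil was 0.22 (rho 0.007) over 12 libraries. It was 0.79 within the wild type, WT2 included, and 0.67 within the knockout, KO4 included. Without WT2 and KO4, r was -0.34 for Skil, -0.32 for the ambiguous share and 0.004 for the multiply placed share. It was then -0.01 for the total count, 0.15 for genes detected and 0.27 for reads in no gene. Without WT2 and WT7, r was -0.07 for Skil, -0.55 for the ambiguous share and 0.16 for the multiply placed share. It was then 0.41 for the total count, 0.43 for genes detected and -0.08 for reads in no gene. The part of these measures in the shared movement was not tested.

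**Figure D3:**
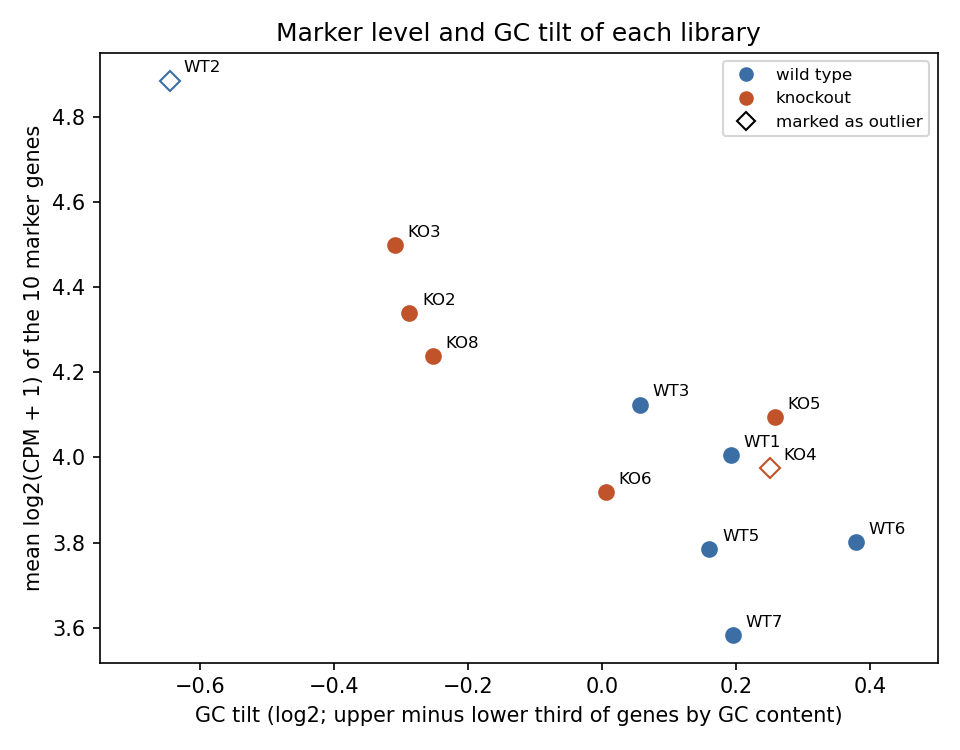
Mean log2(CPM + 1) of the 10 marker genes (vertical axis) against the GC tilt of each library in log2 units (horizontal axis), with wild type in blue, knockout in red and the marked libraries as open diamonds. WT2, KO3, KO2 and KO8 have a tilt between -0.64 and -0.25 and the 4 highest marker means, from 4.24 to 4.88.

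Between the genotypes, no marker passed the test. In edgeR's quasi-likelihood fit of 5 against 5 libraries, 0 of the 9 markers tested had an adjusted p under 0.05, and 0.0223% of 13442 genes did (3 genes). At an unadjusted p under 0.05, 5 of the 9 were higher in the knockout and 0 lower, while 11.8% of all genes were higher at that threshold. The median log2 fold change of the 9 was 0.44, against 0.00 over all genes. Several markers varied together across the libraries, so here and below such counts and medians do not rest on independent genes. Ppp1r17, which was not tested in this fit, averaged 0.461 ± 0.553 CPM in the knockout and 0.713 ± 0.483 in the wild type (SD, n = 5 each).

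The 5 were Rora, Foxp2, Calb1, Car8 and Itpr1. Rora averaged 16.3 ± 4.58 CPM in the wild type and 30.5 ± 10.3 CPM in the knockout, a log2 fold change of 0.90 ± 0.23 (SE, edgeR adjusted p = 0.128). Foxp2 averaged 15.0 ± 3.07 and 28.1 ± 14.2 CPM (0.90 ± 0.27, edgeR adjusted p = 0.131). Calb1 averaged 90.1 ± 14.8 and 138 ± 44.8 CPM, with a log2 fold change of 0.61 ± 0.18 (edgeR adjusted p = 0.131). KO3 and KO2 were the highest unmarked libraries for all 3 genes and also had the GC tilt nearest to that of WT2. Of the unmarked libraries, 3 of 5 knockout and 0 of 5 wild-type libraries had a tilt below 0.

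Car8 averaged 121 ± 24.0 and 164 ± 32.4 CPM (log2 fold change 0.44 ± 0.15, edgeR adjusted p = 0.139) and Itpr1 19.5 ± 3.91 and 25.5 ± 4.36 CPM (0.40 ± 0.16, edgeR adjusted p = 0.176). Gng13 had a log2 fold change of 0.49 ± 0.45, Slc1a6 of 0.34 ± 0.28, Pcp2 of 0.20 ± 0.18 and Pcp4 of 0.17 ± 0.17, with adjusted p between 0.487 and 0.576. In exact permutation tests of single markers, p lay between 0.0317 and 0.0556 for Rora, Foxp2, Calb1, Car8 and Itpr1 and between 0.317 and 0.460 for the other 5 markers, unadjusted for 10 tests. No marker had all 5 knockout libraries above all 5 wild-type libraries, which 1.05% of genes did.

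Whether markers were called depended on the tool and the filter. DESeq2 on the same 10 libraries called Calb1 (adjusted p = 0.0395), Foxp2 (0.0355) and Rora (0.0189) as higher, where it called 4.35% of genes. With no filter beyond a total count of 1, edgeR called Car8, Calb1, Foxp2 and Rora, where 3.49% of genes were called. In that fit 5 of the 10 markers were higher at an unadjusted p under 0.05 against 9.2% of genes, and Ppp1r17 had a log2 fold change of -0.59 ± 0.70 (edgeR adjusted p = 0.667). Without KO5 edgeR called the same 4 markers, but it then called 22.9% of all genes. With KO2 counted as wild type by its genotype tag, 0 of the 9 markers and 0.0% of genes were called. Of the 9, only Itpr1 (log2 fold change 0.42) was then higher at an unadjusted p under 0.05, against 2.31% of genes, and Rora was at 0.52, Foxp2 at 0.59 and Calb1 at 0.40.

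The comparison depended on WT2. With all 12 libraries, 0 of the 9 markers were called, where 0.00751% of genes were. Nor were any higher at an unadjusted p under 0.05, a threshold that 1.91% of genes passed, and the median log2 fold change of the 9 was 0.16. Foxp2 dropped from 0.90 to 0.09 ± 0.43, Calb1 from 0.61 to 0.07 ± 0.31 and Rora from 0.90 to 0.28 ± 0.36. With only WT2 left out they were 0.80, 0.49 and 0.78, and with only KO4 left out 0.19, 0.18 and 0.40.

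With the GC trend removed from the 10 libraries, Calb1 was at 0.27 ± 0.13 and Car8 at 0.25 ± 0.13, against 0.61 and 0.44 before. Rora was at 0.65 ± 0.17 and Foxp2 at 0.69 ± 0.25. Itpr1 stayed at 0.42 ± 0.16. Of the 9, 3 were higher at an unadjusted p under 0.05 (7.48% of genes) and none was called (0.0372% of genes).

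**Figure D4:**
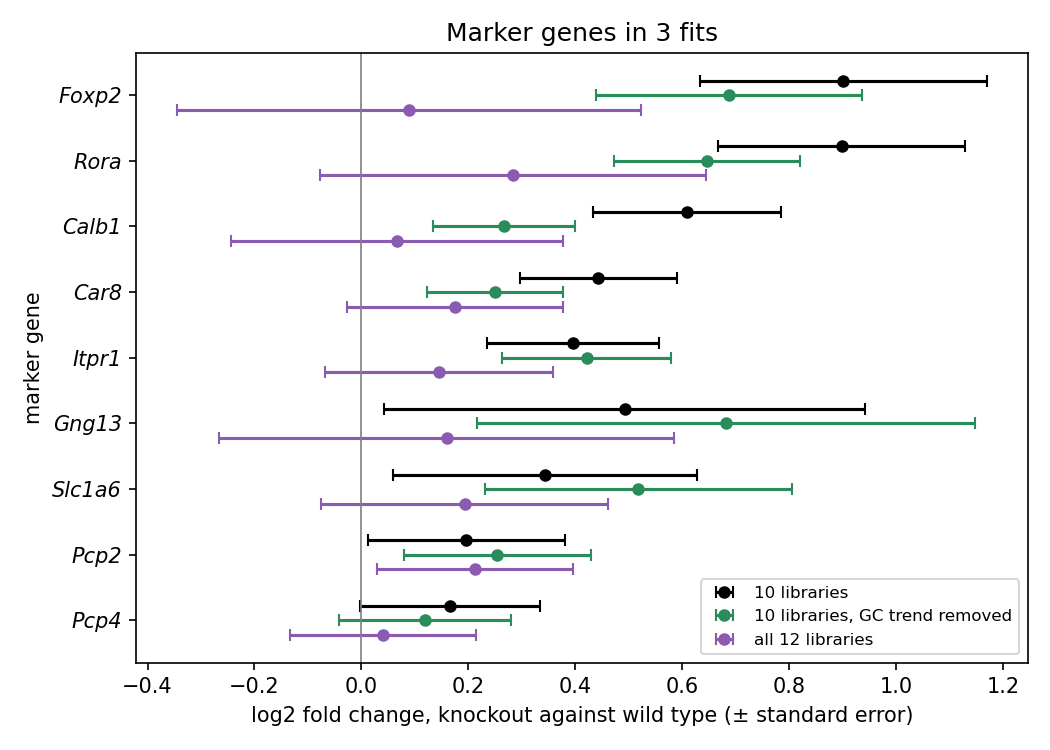
Log2 fold change of knockout against wild type (horizontal axis, points with standard errors) for the 9 marker genes tested, in the fit of 10 libraries, the same with the GC trend removed, and the fit of all 12 libraries. Foxp2 and Rora stand at 0.90 in the first fit, 0.69 and 0.65 in the second, and 0.09 and 0.28 in the third.

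Other genes of Purkinje cells were followed through a separate list of 44, of which 39 passed the filter. Their mean had r = 0.85 with the marker mean over 12 libraries, 0.82 without WT2 and WT7 and 0.86 over the 10 unmarked libraries, but 0.49 when libraries were scaled by their size alone. Singly, 18 of the 39 had an r of at least 0.5 with the marker mean, against 25.4% of all genes. Between the genotypes, in the 10 libraries, an unadjusted p under 0.05 was reached by 9 that were higher in the knockout and by 2 that were lower, beside 11.8% and 9.97% of all genes. None passed adjustment, and their median log2 fold change was 0.21.

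Among the most abundant of them, Dner, a Notch ligand of Purkinje cells, had r = 0.72 with the marker mean, the forkhead gene Foxp1 0.70, the LIM homeobox gene Lhx1 0.65 and Fam107b 0.53. Bcl11a had r = 0.05, Mpped2 -0.02 and Icmt -0.46, so the list did not move as one. Foxp1 had the smallest p of the list between genotypes (29.7 ± 4.68 CPM in the wild type and 40.8 ± 3.35 in the knockout, log2 fold change 0.46 ± 0.12, edgeR adjusted p = 0.131). Shh itself, the mitogen that Purkinje cells release, had 0 to 9 reads per library and did not pass the filter.

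As list means, the other cell types had lower correlations with the marker mean than the other Purkinje genes, but gene by gene they did not all. The median r of single genes was 0.32 for the other Purkinje genes, 0.48 for meninges, 0.42 for endothelial and mural cells and 0.34 for maturing granule neurons. An r of at least 0.5 was reached by 46.2% of the other Purkinje genes, 50.0% of meningeal and 47.4% of maturing granule neuron genes. The mean of the Bergmann glia and astrocyte list had r = 0.55 with the marker mean, but 0.25 without WT2 and WT7. Bergmann glia have their cell bodies among the Purkinje cells, and their genes were abundant, with a summed level of 1185 to 2696 CPM in the wild type and 1473 to 1911 CPM in the knockout (Fabp7 669 ± 301, Slc1a3 203 ± 44.5 CPM, SD, n = 12). The list of inhibitory interneurons had r = 0.50, at a summed level of 65.0 to 95.1 CPM in the wild type and 72.0 to 114 CPM in the knockout. The list of meningeal genes had 0.51, endothelial and mural cells 0.48, unipolar brush cells 0.37, maturing granule neurons 0.24, microglia 0.18 and granule precursors 0.16. Scaled by library size alone, these became 0.15 for Bergmann glia and 0.015 for interneurons, and turned negative for maturing granule neurons (-0.29), microglia (-0.033) and granule precursors (-0.27). The oligodendrocyte lineage had -0.61, and -0.10 without WT2 and WT7. None of the genes on these lists was at 0 in every library. The differences between these correlations were not tested.

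**Figure D5:**
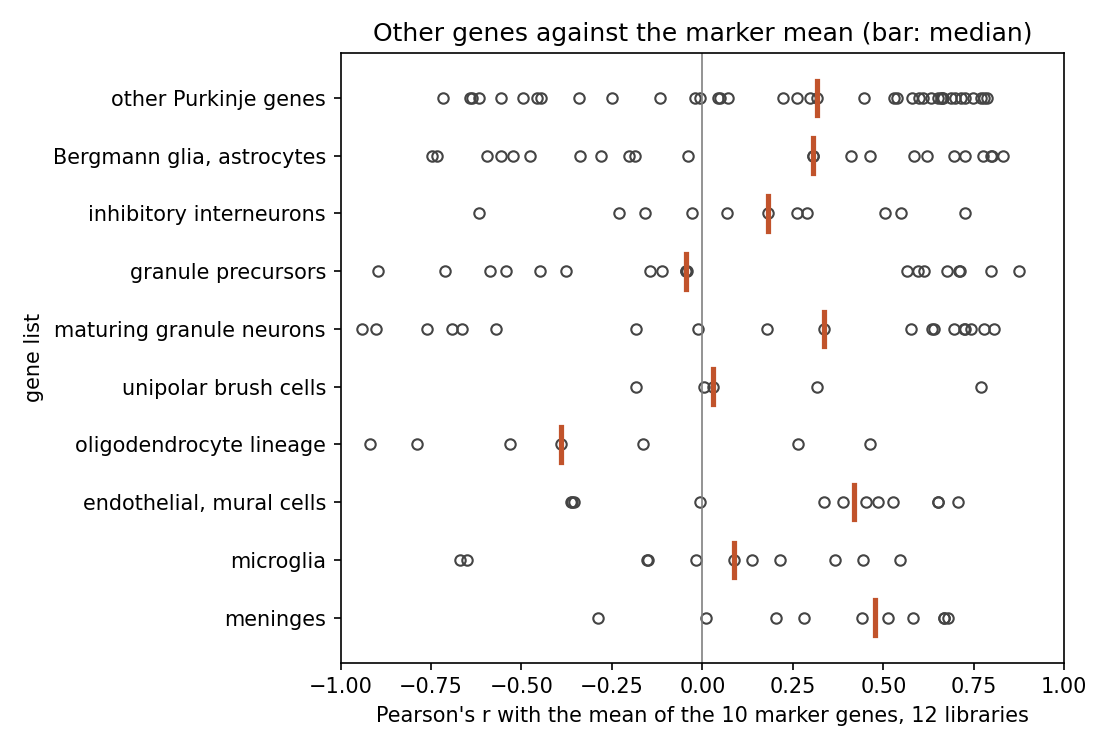
Pearson's r over 12 libraries (horizontal axis) of each gene of the other lists (rows, open circles) with the mean of the 10 marker genes; the bar is the median of the list. The other Purkinje genes run from -0.72 to 0.79 with a median of 0.32, and every list spreads widely on both sides of its median.

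Outside the 10 markers, which were left out of this ranking, the 10 genes most like the marker mean are not on the list of other Purkinje genes. Among genes of at least 5 CPM, the highest r over 12 libraries belonged to Scml2 (0.96), Memo1 (0.95), Ptp4a1 (0.94), Zfp2 (0.93), Zfp991 (0.93), Kpna3 (0.93), Asb3 (0.93), Wnk1 (0.92), Sept2 (0.92) and Arxes2 (0.92). Their transcripts had a GC content of 35.4% to 49.0%. Lowest were Vat1 (-0.96), Trim3 (-0.95), Atp9a (-0.95), Blmh (-0.94) and Cbln1 (-0.94), with 56.2% to 59.8% GC except for Blmh at 42.8%. Scml2 was at 11.5 to 36.8 CPM and Cbln1, a synaptic organizer made by granule neurons, at 161 to 291 CPM.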

How the data were processed

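The authors deposited 1 table of raw read counts for each library, whole numbers that had not been normalized. Per the submitters' processing notes the authors used cutadapt 1.16, STAR 2.5.3a, HTSeq 0.6.1 and DESeq2 with build mm10; settings, annotation release and strand setting are not given in the sources used. Per the labels' protocols, the library kit was NEBNext Ultra, which does not mark strand. The 5 summary rows were left out of each table. Of 53379 identifiers, 53274 were matched to GENCODE M21.

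Genes were filtered with filterByExpr (minimum count 10; 13318 kept over 12 libraries, 13442 tested in 10) and compared with edgeR 4.0.16 (robust quasi-likelihood, TMM factors, limma 3.58.1, R 4.3.3), with Benjamini-Hochberg adjustment over all genes tested and a call at an adjusted p under 0.05. CPM use filter and factors over all 12 libraries, and Ppp1r17, which fails the filter, was put on the same scale. Correlations used log2(CPM + 1) and 100000 permutations. GC content is that of each gene's longest transcript in GENCODE M21, since no genome sequence was used; the trend removed was a spline with 5 degrees of freedom. The GC tilt and the shares of ambiguous, multiply placed and unassigned reads were added after seeing the data, as were fits leaving out only WT2 or KO4, the fit of 12 libraries with the GC trend removed, the median r of the marker pairs without the 2 farthest libraries, and that median with both the GC trend and 2 libraries removed; 7 library measures were computed. Within groups, no 2 libraries agreed within sampling noise (chi-square divided by its degrees of freedom 6.59 to 92.2).

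The marker genes and the gene lists were chosen with earlier results of these data known. Genes named are the 10 markers, Skil, the 10 genes most and 5 least correlated with the marker mean at 5 CPM or more, the 8 most abundant of the other Purkinje list, and up to 3 of each further list. The result of 1 gene that this rule names is not reported here. On simulated counts for 5 against 5 libraries (13251 genes), the share of changed genes found was 32.8% (of 67) at 1.5-fold, 82.8% (of 64) at 2-fold and 96.7% (of 61) at 4-fold. Of the calls, 8.84% were false. The counts were drawn for each gene on its own, without differences shared by many genes of a library, such as the GC tilt. The shares found may therefore not carry over to the real libraries.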

Additional observations from a re-analysis of the deposited data

Results flagged for a closer look

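In each group of 6 libraries the highest or lowest value was set against its distance to the next, for the 10 markers, their sum and the marker mean, 24 groups of values in all. Chance alone picks out about 1 in 20 such groups. In 6 of the 24 a library stood apart, 5 of them in WT2, which the submitters had already marked.

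In WT2, Calb1 was at 274 CPM (next wild-type library 114), Foxp2 at 73.6 CPM (next 19.6), Rora at 57.2 CPM (next 21.4) and Itpr1 at 41.2 CPM (next 23.5). The sum of the 10 markers was 749 CPM there, against 379 CPM in WT3, the next. These 5 values come from the same library and are not independent.

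In WT7, Slc1a6 was at 1.90 CPM, below the next wild-type library at 4.41 CPM.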

How the results depend on the processing

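Over 207 alternative fits of single markers, 194 kept the direction and the side of the threshold, 11 passed it and 2 turned direction. The number of markers called was 0 in the main fit, 3 with DESeq2 (Calb1, Foxp2 and Rora, where 4.35% of genes were called; Slc1a6 and Gng13 got no adjusted p), 4 with no filter beyond a total count of 1 (Car8, Calb1, Foxp2 and Rora; 3.49% of genes), and 0 to 4 when each library was left out in turn, with 4 only without KO5, where 22.9% of all genes were called. Counts of all genes were 3 in the main fit, 449 with DESeq2, 965 without the filter and 3102 without KO5; the cause was not tested. At an unadjusted p under 0.05, scaling by library size alone gave 884 genes as higher and 1988 as lower, against 1585 and 1340 with TMM. The r of deviations was 0.40 for WT2 and KO2, and -0.06, 0.18 and 0.04 for the libraries numbered 3, 5 and 6. KO2 matched WT2 best, but WT2 matched KO3 best. Since same-numbered libraries did not all deviate together, the numbers were not taken as pairs. With the replicate number as a block no marker was called, and Slc1a6 had a log2 fold change of -0.24 in 10 libraries and -0.13 in 12. The median r of the marker pairs was 0.37 to 0.52 when each library was left out, lowest without WT7 or WT2. It was 0.38 without WT2 and KO4, 0.70 in the wild type, 0.23 in the knockout, 0.35 by library size alone, 0.34 as Spearman's rho, 0.18 without WT2 and WT7, and 0.44 with the GC trend removed and without those 2; values were taken as moved beyond the SD of the leave-one-out values, 0.05 for this median. The r of list means with the marker mean was, without WT2 and KO4, 0.43 for Bergmann glia, 0.27 for granule precursors, 0.46 for maturing granule neurons, 0.46 for unipolar brush cells and 0.35 for endothelial cells. Without WT2 and WT7 it was 0.82 for other Purkinje genes, 0.25 for Bergmann glia, 0.48 for maturing granule neurons, 0.49 for unipolar brush cells, -0.10 for oligodendrocytes, 0.32 for microglia and 0.45 for meninges. By library size alone it was 0.49, 0.15 and 0.015 for other Purkinje genes, Bergmann glia and interneurons, -0.27 and -0.29 for granule precursors and maturing granule neurons, and 0.11, -0.73, 0.21, -0.033 and 0.41 for unipolar brush cells, oligodendrocytes, endothelial cells, microglia and meninges. Depth limits Gng13 and Ppp1r17, at 21 reads or fewer per library.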
